A study of Drosophila melanogaster with 2 samples.

Results

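The 92 cytosolic ribosomal protein genes of Drosophila melanogaster were examined for binding of Krüppel (Kr), out of 13945 protein-coding genes on the chromosome arms. They were chosen by name, as protein-coding genes whose symbol starts with RpL or RpS followed by a digit, together with RpLP0, RpLP1, RpLP2 and sta. The rule itself uses names and no measured value. The 73 genes whose symbol starts with mRpL or mRpS, which encode proteins of the mitochondrial ribosome, were the contrast. The assay was chromatin immunoprecipitation with sequencing (ChIP-seq) in whole embryos of 0 to 10 h, males and females pooled, in 1 group of 2 biological replicates that the labels number 2 and 3. The strain, Kr-GFP, is a transgenic line that stably expresses Kr with GFP fused to its C terminus, and chromatin was precipitated with an antibody to GFP after sonication. The labels do not settle whether the tagged protein replaces the endogenous Kr or is added to it, and whole embryos mix all cell types of that age span. No input, mock precipitation or untagged embryo was analysed here, and nothing in these data measures expression.

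Cytosolic ribosomal proteins build the small (40S) and large (60S) subunits of the ribosome that translates nuclear mRNAs, and P proteins form a stalk on the large subunit that recruits translation factors. In flies, losing 1 copy of many of these genes gives the Minute phenotype of slow development and thin bristles. Their mRNAs typically start within a pyrimidine-rich initiator, a core promoter element that differs from the TATA box and from the usual initiator. Kr is a zinc-finger transcription factor, best known as a gap protein that represses other segmentation genes from the centre of the early embryo, and it is used again in later tissues.

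The sequences around the start sites show that initiator and how far it is shared. Each is 30 bases from 12 before the transcription start site (TSS), which is the base 13, read 5′ to 3′ along the gene from the RefSeq copy of the dm6 genome (Release 6). Capitals mark the words TCTTT or CCTTT where they start within 10 bp of the TSS. The TSS is the annotated one nearest the Kr summit, or that of most transcripts for RpS5b and RpS28a, which had no reproducible summit. RpS4, RpS30, RpL28 and RpL24 are shown as strongly bound genes with the word, and RpS27 and RpL7 as the highest-ranked genes, both without it at this TSS. RpS5a and RpS5b, and RpS28b and RpS28a, are shown as duplicated pairs of which 1 copy had a reproducible summit.
RpS4 (chr3L:13041789-13041818, plus strand): cgcccgcaaatctgCCTTTtCCTTTtcctg
RpS30 (chr3R:20850585-20850614, plus strand): tgcgccaTCTTTCTTTttcgggatccgcac
RpL28 (chr3L:3222943-3222972, minus strand): gtcgggctgccatattTCTTTccttcttgt
RpL24 (chr2L:13395075-13395104, minus strand): tccacttccgtttTCTTTTCTTTtcgtgtt
RpS27 (chr3R:25247497-25247526, minus strand): tcagcattatttagtgcattctcgggcaag
RpL7 (chr2L:10200992-10201021, plus strand): gtgaccgtttggccgatggcgcgcgtgtca
RpS5a (chrX:17148247-17148276, minus strand): actgccgtaacatgtTCTTTttcaggcgtt
RpS5b (chr3R:14901546-14901575, minus strand): tccttttaccgttTCTTTttcatcctcttt
RpS28b (chrX:9554611-9554640, plus strand): tgccgataaccgctcaacttCCTTTttgct
RpS28a (chr3R:30022631-30022660, minus strand): gcactcacagcttcaaattcaaatctttta

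The deposited data are peak lists, so the depth of each library is unknown. Each replicate and the pooled reads of both had a permissive list of 30000 peaks, and the list kept for reproducibility by the irreproducible discovery rate (IDR) held 2102 peaks. These 2102 were also the top of the pooled list by signal, which gives a peak the same rank in both. Signal is the authors' height per peak, on a scale that is not given. It is compared within its own list, and means or ratios over the replicates carry any difference in scale between their lists. The summit is the single base at which the authors placed the peak's height. A gene was counted as bound when a summit lay within 500 bp of any annotated TSS.

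Kr summits lay at the start sites of ribosomal protein genes more often than at those of protein-coding genes in general. By the IDR list, 42 of 92 ribosomal protein genes (45.7%) had a summit within 500 bp, against 8 of 73 mitochondrial ribosomal protein genes (11%) and 688 of 13945 protein-coding genes (4.93%). At all 42 ribosomal protein genes no TSS of another gene lay nearer the gene's highest-ranked summit. That held for 3 mitochondrial ribosomal protein genes and for 558 protein-coding genes (4.00%). All 42 also had the summit within 100 bp, against 1 mitochondrial ribosomal protein gene and 234 protein-coding genes (1.68%).

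The permissive lists reached most of the family in each replicate. In the pooled list 78 ribosomal protein genes (84.8%) had a summit within 500 bp, against 25 mitochondrial ribosomal protein genes (34.2%) and 34.6% of all protein-coding genes. Replicate 2 had one at 76 ribosomal protein genes and replicate 3 at 79, against 23 and 28 mitochondrial ribosomal protein genes and 33.7% and 35.2% of all genes. A summit in both replicate lists was found at 73 ribosomal protein genes (79.3%), 17 mitochondrial ribosomal protein genes (23.3%) and 23.3% of all genes. The mitochondrial list thus lay close to the background in the pooled list, in both replicate lists together, and in the IDR list within 100 bp (1.37%) or with no nearer TSS of another gene (4.11%). Its 8 genes within 500 bp by the IDR list include 5 whose highest-ranked summit was nearer a neighbour, and without replicate 3 the count was 5.

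The share of ribosomal protein genes was the higher at every depth of the lists. Among the 500 highest pooled peaks, 12 ribosomal protein genes (13.0%) had a summit, against 4 mitochondrial ribosomal protein genes (5.48%) and 1.32% of all genes. Among the 5000 highest, the shares were 62.0% of ribosomal protein genes, 11% of mitochondrial ribosomal protein genes and 9.91% of all genes. With the 500 highest peaks of each replicate, 8 ribosomal protein genes (8.70%) were reached in replicate 2 against 1.05% of all genes, and 13 (14.1%) in replicate 3 against 1.58% of all genes. Ribosomal protein genes were not among the very highest peaks, with a best rank of 64 over 42 genes with an IDR summit. The best rank at any protein-coding gene was 5, but over 688 such genes, and a larger set reaches a better best rank by size alone. The median IDR rank was 884 at the 42 ribosomal protein genes and 1016.5 at 638 other genes.

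**Figure D1:**
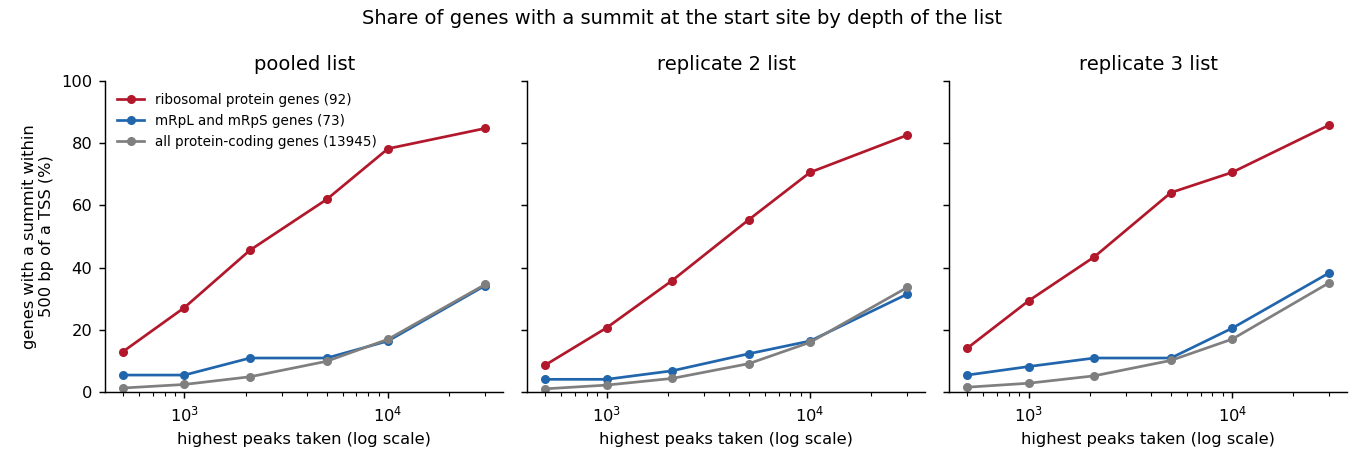
Share of genes with a summit within 500 bp of a TSS (vertical axis, percent) against the number of highest peaks taken from a list (horizontal axis, log scale), for the pooled, replicate 2 and replicate 3 lists. The line of the 92 ribosomal protein genes lies above those of the 73 mitochondrial ribosomal protein genes and of all 13945 protein-coding genes at each depth, ending at 84.8%, 82.6% and 85.9% in the 3 lists.

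Both subunits of the ribosome were represented. Of the small-subunit genes, sta included, 16 of 39 (41.0%) had an IDR summit, and of the large-subunit genes other than the P proteins 24 of 50 (48.0%). Of the 3 P stalk genes, 2 had one. Bound members lay on every chromosome arm: 7 of 19 on 2L, 7 of 20 on 2R, 8 of 14 on 3L, 12 of 23 on 3R, 7 of 15 on X, and RpS3A, the only member on chromosome 4. On all these arms the share of all protein-coding genes with an IDR summit was lower, between 2.50% and 5.42%. Members with snoRNA genes inside them, which guide chemical modification of rRNA, were bound in 15 of 29 cases (51.7%), against 27 of 63 (42.9%) without. Over all protein-coding genes the IDR shares were 26 of 84 (31.0%) with snoRNA genes inside and 662 of 13861 (4.78%) without. A pooled summit was at all 29 members with snoRNA genes and at 49 of 63 without. Over all protein-coding genes it was at 65 of 84 with them and 4760 of 13861 without. The counts over all genes include the ribosomal protein genes.

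The highest of all members was RpS27, a small-subunit protein. Its summit ranked 64 in the IDR list, with a pooled signal of 339, and had a signal of 167 in replicate 2 and 164 in replicate 3, or 165 ± 2.22 (SD, n = 2). It lay 13 bp downstream of the RpS27 TSS, in the 5′ UTR, and 157 bp from the TSS of the neighbouring gene Nup37, which encodes a nuclear pore protein. The peak spanned chr3R:25247281-25247720. Both replicates placed this summit near the top of their lists, at rank 123 in replicate 2 and 55 in replicate 3.

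RpS4, another small-subunit protein, followed at rank 156 with a pooled signal of 259. Its signal was 137 in replicate 2 and 124 in replicate 3, with the summit 7 bp downstream of the TSS. RpS10b ranked 288, with 117 in replicate 2 and 98.2 in replicate 3 and its summit 3 bp upstream. RpS4 and RpS10b, unlike RpS27, had no other gene's TSS within 500 bp of the summit. RpS30, whose protein is made as a fusion with a ubiquitin-like protein, ranked 317 with 101 in replicate 2 and 103 in replicate 3. Its summit was 14 bp upstream of the nearest annotated TSS, and counted as 5′ UTR because another transcript starts further upstream.

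Of the large-subunit genes, RpL7 and RpL30 stood highest. RpL7 ranked 132, with 133 in replicate 2 and 135 in replicate 3, or 134 ± 1.17 (SD, n = 2), 7 bp downstream of its TSS. The TSS of the neighbouring gene Ripalpha lay 37 bp from that summit. RpL30 ranked 146, with 151 in replicate 2 and 123 in replicate 3, or 137 ± 20.2 (SD, n = 2), and had no neighbouring TSS within 500 bp.

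The other large-subunit genes among the 12 highest were RpL41, RpL28, RpL13A, RpL14, RpL24 and RpL11, between ranks 200 and 428. RpL41, whose product is the smallest ribosomal protein, had 115 in replicate 2 and 114 in replicate 3. RpL28 had 116 and 95.5, RpL13A 97.1 and 106, RpL14 111 and 98.1, and RpL11 102 and 72.4, each with replicate 2 given before replicate 3. Of these, RpL41, RpL28, RpL13A and RpL14 had another gene's TSS within 500 bp of the summit, and the RpL28 summit was 336 bp from the TSS of the initiation factor gene eIF1. RpL11, which binds 5S rRNA, had none.

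RpL24, a large-subunit protein at the interface with the small subunit, was the member on which the replicates differed most plainly. Its IDR summit ranked 386 with a pooled signal of 193, 19 bp upstream of the TSS. Replicate 3 had a summit 10 bp upstream of the TSS, at rank 348 with a signal of 87.3. Replicate 2 had none within 500 bp, and its nearest summit lay 787 bp upstream at rank 28738 with a signal of 18.3. Of 2102 IDR summits, 4 (0.190%) had no replicate 2 summit within 500 bp, and RpL24 was the highest-ranked of them. Such a gap in the replicate 3 list occurred at 2 IDR summits, neither at a ribosomal protein gene.

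The P stalk genes were bound at lower rank. RpLP0, the anchor of the stalk, ranked 1318, with a signal of 53.6 in replicate 2 and 77.1 in replicate 3, and RpLP1, a stalk dimer subunit, ranked 1828 with 46.4 and 61.6 in the same order. RpLP2, its dimer partner, just missed the IDR list, with pooled rank 2402 and signals of 49.4 in replicate 2 and 56.6 in replicate 3. All 3 stood higher in replicate 3 than in replicate 2, by rank and by signal.

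Some well-known small-subunit genes were present in the permissive lists alone. RpS6, the substrate of S6 kinase, had pooled rank 4943, at rank 4607 in replicate 2 and 12544 in replicate 3. The small-subunit gene sta had pooled rank 5408, but its replicate ranks of 5648 in replicate 2 and 26684 in replicate 3 were the farthest apart of all members ranked in both lists. The large-subunit gene RpL6 had rank 28281 in replicate 2 and 10774 in replicate 3, so the disagreement ran in either direction. The permissive lists run deep, with q-values of up to 0.763 in the pooled list.

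**Figure D2:**
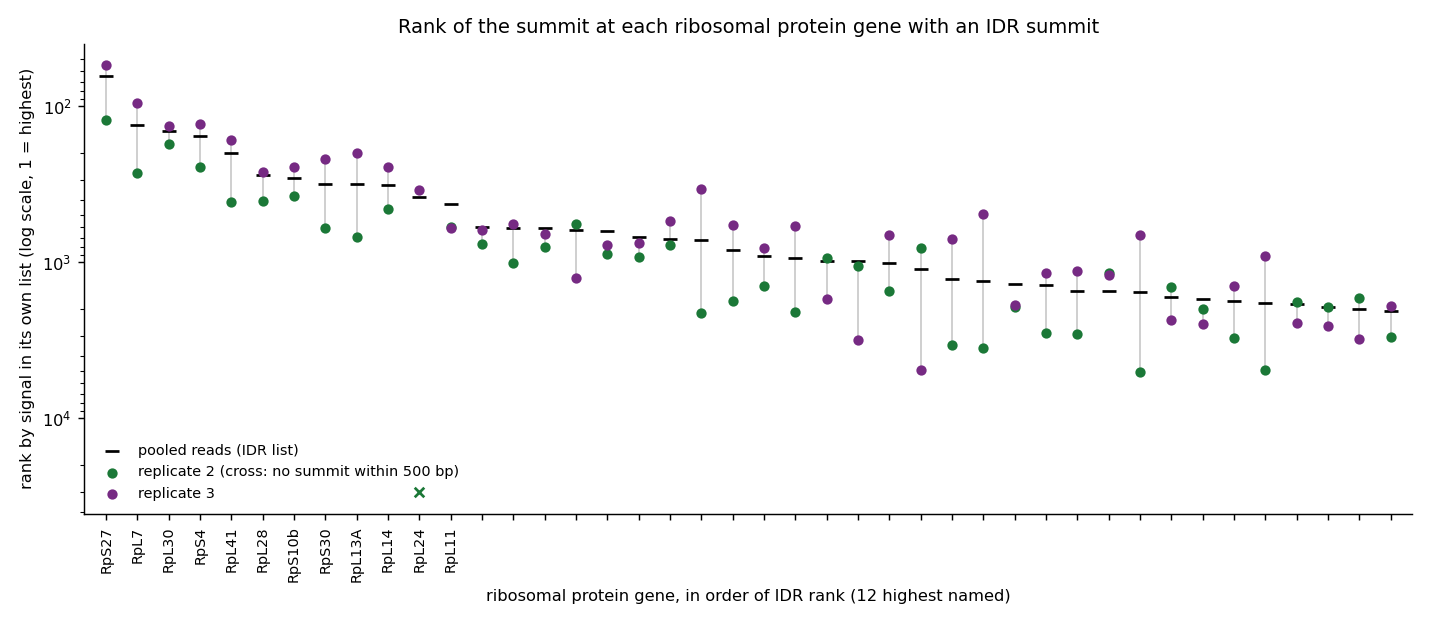
Rank of the summit in its own list (vertical axis, log scale, 1 at the top) for each of the 42 ribosomal protein genes with an IDR summit, ordered by IDR rank, with the 12 highest named. Dashes mark the pooled reads, green points replicate 2 and purple points replicate 3; the replicate 3 point stands higher for 30 of the 41 genes with both, and the cross marks RpL24 in replicate 2.

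Bound members stood higher in replicate 3 by rank and higher in replicate 2 by signal, as other bound genes did. The median rank of the 42 genes was 1056 in replicate 2 (41 genes) and 674 in replicate 3, against 1128 and 899 for other protein-coding genes with an IDR summit. The ratio of replicate 2 to replicate 3 signal had a median of 1.20 (interquartile range 1.01 to 1.45) at 41 ribosomal protein genes and 1.27 (0.986 to 1.69) at 626 other genes. Replicate 3 ranked higher at 30 of 41 ribosomal protein genes (73.2%) and at 375 of 626 other genes (59.9%). At 25 of 41 members both replicates lay within their 2102 highest peaks, and at the other 16 only 1 replicate did. Of the 626 other genes, 376 had both replicates there, 233 only 1 and 17 neither, so the members were close to other bound genes in this. The largest drop in replicate 3 was at RpS3A, named here after its values were seen, with a signal of 92.2 at rank 812 in replicate 2 and 31.8 at rank 4915 in replicate 3.

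The summits of ribosomal protein genes lay closer to the TSS than those of other bound genes. The median signed distance from TSS to summit was 3.5 bp upstream (-3.5 bp, interquartile range -27 to 10.75 bp) at the 42 ribosomal protein genes, against -126 bp (-242 to -8 bp) at 638 other genes and -150 bp at the 8 mitochondrial ribosomal protein genes. Within 50 bp of the TSS lay 39 of 42 ribosomal protein summits (92.9%), against none of 8 mitochondrial ones and 98 of 638 at other genes (15.4%). Within 100 bp lay 42 of 42, against 1 of 8 and 191 of 638 (29.9%). At the 513 other genes with no nearer TSS of another gene, the median was -95 bp. Of these, 18.1% had the summit within 50 bp and 34.9% within 100 bp. The ribosomal protein summits spread to both sides, 25 upstream and 17 at or downstream of the TSS, and by annotation 24 fell in a 5′ UTR and 18 outside the gene. Counting from the 5′ end of the gene alone gave a median of 6.5 bp, downstream in place of upstream, so the side is not resolved. By that count 38 of 42 ribosomal protein summits (90.5%) still lay within 100 bp, against 133 of 498 at other genes (26.7%). Bound genes had a median of 2 annotated TSSs in both sets.

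**Figure D3:**
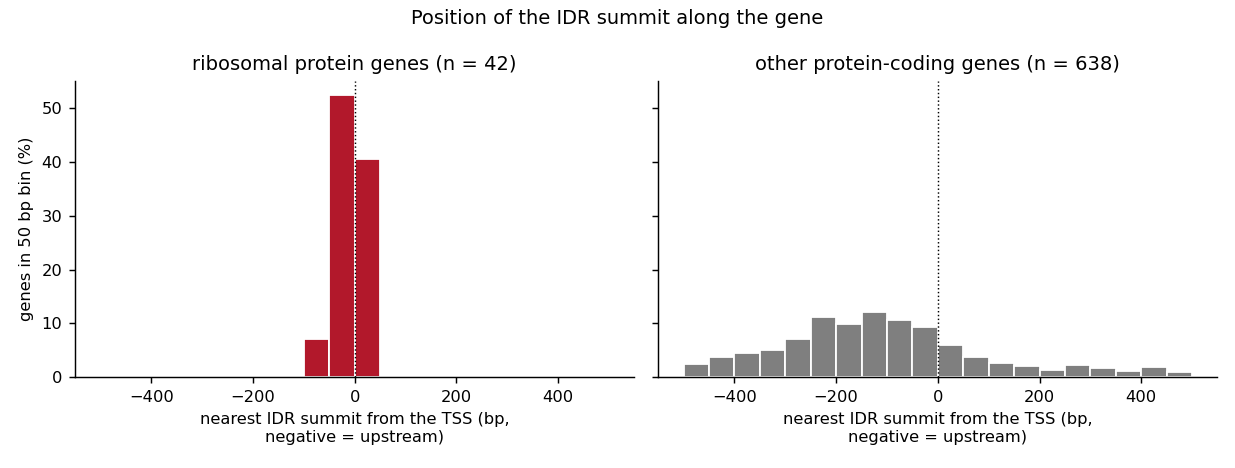
Distance of the nearest IDR summit from the TSS in 50 bp bins (horizontal axis, bp, negative upstream; vertical axis, percent of genes), for 42 ribosomal protein genes and 638 other protein-coding genes. The ribosomal protein summits fill only bins within 100 bp of the TSS, while those of other genes spread over the whole window with a median of -126 bp.

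The weaker summits also lay close to the TSS. Of the 36 members with a pooled but no IDR summit, 33 (91.7%) had it within 100 bp of the TSS, with a median of -9 bp, against 37.3% of other protein-coding genes of the same kind, with a median of -23 bp. By replicate, 30 of 35 such members (85.7%) lay within 100 bp in replicate 2 and 29 of 37 (78.4%) in replicate 3, against 38.3% and 34.4% of other genes. By the IDR list no member lay between 100 and 500 bp of a summit. Near the inner side of the window was RpLP0 at 51 bp, and the nearest outside it were RpL40 at 695 bp, RpL12 at 1987 bp and RpS23 at 2680 bp. The summit nearest RpL12 is the one already counted for RpL39. The end of the IDR list cut through a continuous series of heights. The last member inside was RpL18 at rank 2075 with a pooled signal of 103, and the first outside were RpL7A at 2250 with 100.3 and RpL19 at 2296 with 99.4; all 3 were chosen after their values were seen.

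The ubiquitin-fusion genes differed among themselves. RpS30 was bound as given above. RpL40, whose protein is cleaved from ubiquitin, had an IDR summit of rank 236 and signal 232 that lay 695 bp upstream and only 24 bp from the TSS of CG3702, so it was not counted for RpL40. That summit had a signal of 102 in replicate 2 and 128 in replicate 3, and replicate 2 also had a weak one 94 bp upstream of the RpL40 TSS, at rank 20010. RpS27A, the small-subunit ubiquitin fusion, had a summit 50 bp upstream of its TSS in replicate 3, at rank 1280 with a signal of 53.9 and q of 0.00352. In replicate 2 and in the pooled list the nearest summit to RpS27A was 27821 bp and 27820 bp away.

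Among the 12 pairs taken as duplicated, 8 had an IDR summit at 1 copy, 1 at both and 3 at neither. The partners share a symbol stem, and whether those named -like encode the same ribosomal protein was not examined. The bound copies were RpL7, RpL24, RpL37-1, RpS5a, RpS10b, RpS15Aa, RpS19a and RpS28b. Their partners RpL24-like, RpL37-2, RpS5b, RpS10a, RpS15Ab and RpS19b had no pooled summit within 500 bp, and RpL7-like and RpS28a had weak ones at ranks 9483 and 9513. RpS5b and RpS19b are known for expression in the germ line. RpS5a ranked 1568, with 45.9 in replicate 2 and 68.9 in replicate 3, and RpS19a ranked 729, with 65.3 and 87.8. RpS19b and RpS15Ab had a summit in replicate 3 alone, at ranks 12822 and 21221.

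RpL34a and RpL34b were the pair with both copies bound, at ranks 1534 and 1780. The pairs without an IDR summit were RpL10Aa and RpL10Ab, RpL22 and RpL22-like, and RpS14a and RpS14b. RpL22 had pooled rank 2754 and RpL10Ab 9540, while their partners had no summit in any list. RpL22-like is known for expression in the testis. RpS14a had rank 2725 and RpS14b 15210. The RpS14a summit of that rank lay at -211 bp and was nearer the TSS of the gene Dhdds, 180 bp away. The summits nearest each TSS were at -7 bp and rank 4895 for RpS14a, and at -31 bp and rank 16230 for RpS14b. RpS14a and RpS14b are nearly identical tandem copies, and how reads were shared between them is not known, so their difference is uncertain. Members outside the pairs were bound in 32 of 68 cases.

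**Figure D4:**
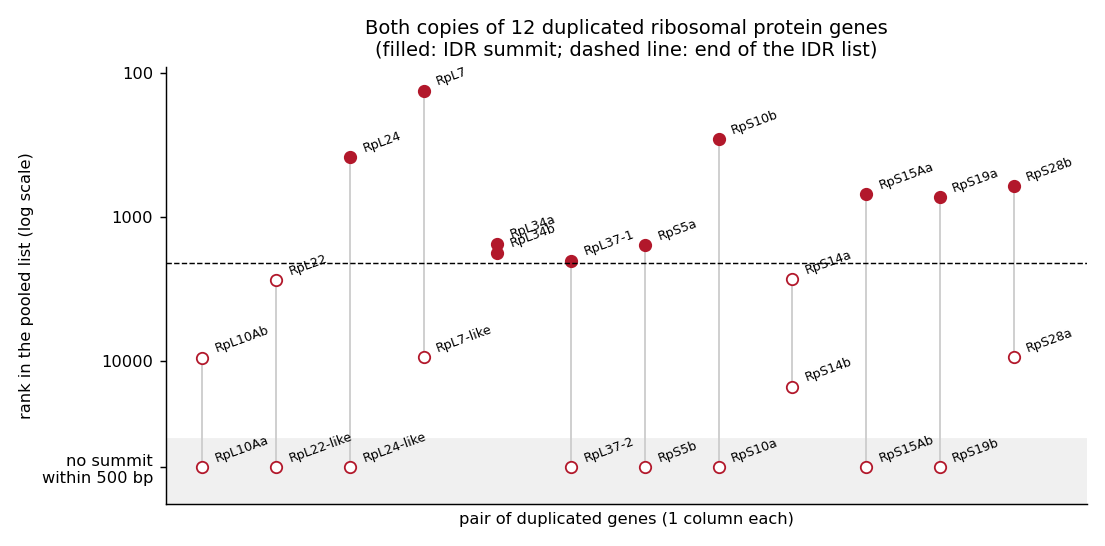
Rank in the pooled list (vertical axis, log scale) of both copies of 12 ribosomal protein gene pairs taken as duplicated, 1 column per pair. Filled points mark an IDR summit and the grey band holds copies with no pooled summit within 500 bp. In 8 columns 1 copy lies above the dashed end of the IDR list and the other below it, and in the column of RpL34a and RpL34b both lie above it.

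In all, 10 members had no summit within 500 bp in any list. Of these, 6 belong to the pairs: RpL10Aa, RpL22-like, RpL24-like, RpL37-2, RpS5b and RpS10a. The others, named here after their values were seen, were RpL21, RpS24, RpS28-like and RpS3. RpS3, a small-subunit protein at the mRNA entry side, had its nearest pooled summit 1352 bp from the TSS at rank 17547, and RpS24, another small-subunit protein, 2339 bp away at rank 8987. RpS28-like had one 554 bp away at rank 3689, just past the window, and RpL21, a large-subunit protein, 8088 bp away. A missing peak means only that none was listed there, since coverage was not available.

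The mitochondrial ribosomal protein genes with an IDR summit mostly shared it with a neighbour. They were mRpS10, mRpS23, mRpS6, mRpL41, mRpL19, mRpL23, mRpL48 and mRpS2, at ranks 60 to 1771. mRpS10 had the highest, with a signal of 180 in replicate 2 and 153 in replicate 3, 145 bp upstream of its TSS but 112 bp from that of the neighbouring gene Art3. At 5 of the 8 genes another gene's TSS was nearer the highest-ranked summit, and mRpL41, mRpL19 and mRpL23 were the exceptions. Of the 5, mRpS6 also had a lower IDR summit, at rank 352 and 155 bp upstream, for which this was not checked. Proximity to neighbours also occurred in the cytosolic family, where 22 of 42 summits had another gene's TSS within 500 bp, but in none was it the nearer one.

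Other translation genes were compared as lists. Of 34 initiation and elongation factor genes, 7 (20.6%) had an IDR summit, of which 4 lay within 100 bp of the TSS. The highest was eIF1 at rank 276, which shares the RpL28 summit at a distance of 336 bp upstream. eEF1gamma, an elongation factor subunit, ranked 502 with its summit 4 bp downstream of the TSS, and Rack1, a scaffold protein of the small subunit, ranked 591 with its summit 13 bp downstream. pAbp, the poly(A)-binding protein gene, ranked 1270 with a summit 496 bp downstream.

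Genes that make ribosomes or charge tRNAs were near the background of 4.93%. Of 29 ribosome biogenesis and RNA polymerase I genes, 1 (3.45%) had an IDR summit, Ns2, a nucleolar GTPase gene, at rank 1018. That summit lay 162 bp upstream of the Ns2 TSS but only 114 bp from the TSS of the gene POSH. Of 20 aminoacyl-tRNA synthetase genes, 1 (5%) had one, MetRS, at rank 468 and 138 bp downstream of the TSS. The pooled list reached 23 of the 34 factors, 13 of the 29 biogenesis genes and 7 of the 20 synthetase genes, against 34.6% of all genes.

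The letters of the known Kr core site were found at few ribosomal protein summits, and how far that differed from other summits depended on the word and window. The word AAGGGTT, on either strand within 100 bp of the summit, was present at 1 of 42 ribosomal protein summits (2.38%), against 55 of 565 other IDR summits within 500 bp of a TSS (9.73%) and 207 of 1495 IDR summits farther from any TSS (13.8%). The member with it was RpL41. The median signal was 143 at the ribosomal protein summits, 134 at the other TSS summits and 133 at the distal ones. Among mitochondrial ribosomal protein summits, 1 of 9 had it, at mRpL19, shown as the contrast with the word in capitals on the plus strand.
mRpL19 (chr3R:8674067-8674096): ttccaattataAAGGGTTatcgataactct
Within 200 bp the word was at 4 of 42 ribosomal protein summits (9.52%), against 69 of 565 other TSS summits (12.2%) and 260 of 1495 distal ones (17.4%). The shorter word AGGGTT within 100 bp was at 6 of 42 (14.3%), against 76 of 565 (13.5%) and 285 of 1495 (19.1%), so with it the ribosomal protein summits were no lower than the other TSS summits. A missing word says only that these letters are not in the window.

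Promoter words did not separate bound from unbound members sharply. Words were searched on both strands from 250 bases before to 50 from the TSS of most transcripts, and the initiator, TCTTT or CCTTT, on the gene's strand within 10 bp of that TSS. The initiator was present at 30 of 42 bound members (71.4%) and 30 of 50 other members (60%), against 5.48% of mitochondrial ribosomal protein genes and 4.40% of all protein-coding genes. It was not confined to the family: 10 of the 34 initiation and elongation factor genes had it. So did 2 of the 29 biogenesis genes and 2 of the 20 synthetase genes. When any annotated TSS was allowed, a choice made after seeing the data, the shares were 39 of 42 (92.9%) and 38 of 50 (76.0%), against 5.48% and 6.30%. Bound members had a median of 2 annotated TSSs and the other members 1, which gives bound members more places for the word. Of the 10 genes printed above, RpS5b has the word, as RpS5a does, but no summit, while RpS27 and RpL7 have summits and no word at the TSS shown.

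Outside the family, genes with and without the initiator were set side by side. Of 549 other genes with the word, 31 (5.65%) had an IDR summit, against 607 of 13231 without it (4.59%). With the word at any annotated TSS, 67 of 797 other genes (8.41%) had one, against 571 of 12983 without it (4.40%); genes with it had a median of 2 annotated TSSs and genes without it 1. In the family by the same definition, 39 of 77 genes with the word (50.6%) and 3 of 15 without it had an IDR summit. There too the median was 2 annotated TSSs with the word and 1 without. More TSSs give a gene more chances of both the word and a summit, so these shares cannot separate the 2. Within 100 bp of the TSS lay 29.0% of the summits of other genes with the word at the TSS of most transcripts and 30.0% of those without it, or 31.3% and 29.8% when any TSS was allowed. Inside the family, by the TSS of most transcripts, the summit lay within 100 bp at 30 of 30 bound genes with the word. The same held at 12 of 12 without it, so this share could not differ, and both medians were -3.5 bp. Among those 12, RpS4 and RpS30 have the word at the TSS nearest the summit, as printed above. When any TSS was allowed, 39 bound members had the word and 3 did not, with medians of -3 and -23 bp. Any part of the initiator in the presence or position of the summits was not tested.

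Of the other words, the DNA replication-related element TATCGATA stood out in the family. It occurred in the promoters of 33.3% of bound members and 28% of other members, against 20.5% of mitochondrial ribosomal protein genes, 9.40% of other genes with an IDR summit and 9.23% of all protein-coding genes. The Motif 1 core GGTCACAC occurred at 11.9% and 18% of bound and other members, against 11% of mitochondrial ribosomal protein genes, 6.27% of other genes with an IDR summit and 7.79% of all genes. The TATA word TATAAA was at similar shares everywhere, 47.6% of bound members, 42.9% of other genes with an IDR summit and 45.5% of all genes. The GAGA word GAGAGA was in 7.14% of bound members, 2% of other members and 5.48% of mitochondrial ribosomal protein genes. It was in 23.5% of other genes with an IDR summit and 12.7% of all genes. The Zelda word CAGGTAG, bound by a factor that opens early embryonic enhancers, was in 0 of 92 members. It was also in 0 of 73 mitochondrial ribosomal protein genes, against 2.66% of other genes with an IDR summit and 1.69% of all genes. The E-box CAGCTG was in 9.52% of bound members and 10% of other members. It was in 54.8% of mitochondrial ribosomal protein genes, 22.6% of other genes with an IDR summit and 17.8% of all genes. The Kr word AAGGGTT was in the promoters of 3 of 42 bound members (7.14%) and 1 of 50 other members (2%). It was in 4.86% of other genes with an IDR summit and 2.72% of all genes. Words can overlap, as AAGGGTT and TATCGATA do in the mRpL19 sequence printed above.

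**Figure D5:**
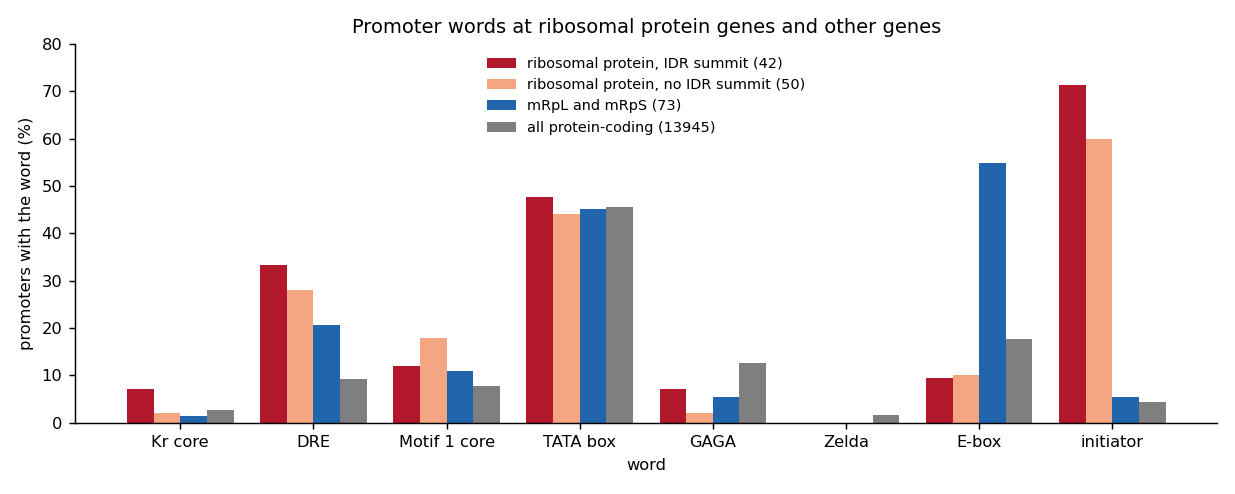
Share of promoters that hold each word (vertical axis, percent), for ribosomal protein genes with an IDR summit, ribosomal protein genes without one, mitochondrial ribosomal protein genes and all protein-coding genes. The initiator bars reach 71.4% and 60% in the ribosomal protein sets against 4.40% of all genes, and the E-box bar is highest in the mitochondrial set at 54.8%.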

How the data were processed

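ChIP-seq peak lists from 1 group of 2 replicates were used, in dm6; the dm3 lists were not used. Peaks were called against a control that is not analysed here, per the deposited text lists; the aligner, the caller and the IDR cutoff were not given in the sources used here. Each list holds, as deposited by the authors, a signal value of unknown scale per peak and the −log10 of a q-value. The replicate and pooled lists were called separately and the IDR peaks are a subset of the pooled peaks, so the lists share reads.

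Summits were set against the TSSs of all transcripts of protein-coding genes in Ensembl release 115, and sequence came from the RefSeq dm6 genome, in Python 3.11.15 with numpy 2.4.6 and matplotlib 3.10.9. On simulated data, 200 of 200 planted summits inside the window and 0 of 200 outside it were found. No test was run: there is no contrast between conditions, and counts are read against all genes. With 2 replicates the SD measures little and carries any scale difference; depth is unknown, so no interval is given. Members and lists were chosen with earlier results of these data known. Named genes were the 12 highest IDR members, all pairs, the ubiquitin fusions, P stalk genes, sta, RpS6, the 3 members nearest either side of the window, the 3 with the largest rank gap, members in no list if at most 8 (there were 10), the IDR genes of the mitochondrial list and up to 4 of each other list; the text marks others. Some items under this rule are not reported here. In the biogenesis list, 2 further names did not match a gene. Alternatives were other windows, TSS definitions, list depths, words and leaving out either replicate.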

Additional observations from a re-analysis of the deposited data

How the results depend on the processing

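The count of 42 ribosomal protein genes was 42 with windows of 100 and 250 bp, 43 with 1000 bp, and 42 with the 5′ end of the gene or a TSS inside the peak. Among the 1051 highest IDR peaks it was 26, also for genes with no nearer TSS of another gene. The 2102 highest peaks of a single replicate gave 33 to 40 genes, or 33 to 39 with no nearer TSS. Without replicate 3 it was 33 (32 of them among the 42; 4.40% of all genes), and without replicate 2 it was 40 (35 of the 42; 5.23% of all genes). The count of 8 mitochondrial genes was less stable: 1 within 100 bp, 4 among the 1051 highest, 4 with a TSS inside the peak, and 5 to 8 with a single replicate. The Kr word count of 1 became 4 within 200 bp and 6 with AGGGTT, and was 1 with either replicate alone. The median distance was 6.5 bp from the 5′ end of the gene, and -8 to 1 bp with a single replicate. The initiator was at 60 of 92 members, and at 77 when any annotated TSS was allowed, an alternative chosen after seeing the data. Fewer peaks and narrower windows lower a count by construction, and the cause of the other moves was not tested. No paired analysis was possible because there is 1 group. Unknown depth limits what an absent peak means.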
